A study of Drosophila melanogaster with 2 samples.

Results

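The 8 autophagy genes Atg1, Atg13, Atg17, Atg9, Atg18a, Atg8a, ref(2)P and Mitf were followed through a map of GFP-tagged Dif on the chromatin of Drosophila larvae. They were named members of a pathway and were looked up among 13945 protein-coding genes of the Ensembl annotation, and all 8 were found. For each gene, peak summits were collected in its locus, meaning the gene body and 5 kb on each side.

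The data come from chromatin immunoprecipitation and sequencing (ChIP-seq) of whole larvae of Drosophila melanogaster. Every library came from a stable transgenic line in which GFP was fused to the C terminus of Dif, an NF-κB protein of the Toll immune pathway. The larvae were in the third instar, at the wandering stage, when they leave the food, and males and females were pooled, with the age given as unknown. There was 1 group of 2 biological replicates, numbered 3 and 4, with fragment sizes of 200 to 275 and of 200 to 300 after sonication. The labels describe an antibody against GFP but list the antibody under the name Dif, and no library without the transgene was used here. Chromatin of all larval tissues was mixed, so a weak peak may stand for few cells or for low occupancy, and these cannot be told apart.

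Autophagy encloses cytoplasm in a closed membrane sac and delivers it to the lysosome for breakdown. A kinase complex of Atg1, Atg13 and Atg17 starts the process, and Atg9 and Atg18a serve the growth of the membrane. Atg8a is then bound to lipid on that membrane, and ref(2)P, the fly orthologue of p62, ties ubiquitinated cargo to it. Mitf is the fly member of the MITF and TFEB family, which turns on lysosome and autophagy genes. In the larval fat body, autophagy increases strongly as larvae wander and prepare to pupate.

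The authors' dm6 list at the irreproducible discovery rate (IDR) threshold held 4175 peaks, which were the 4175 strongest of the pooled list. The pooled list and the list of each replicate held 30000 peaks and background regions each, and q was at most 0.01 for 27.5%, 33.6% and 41.7% of the pooled, replicate 3 and replicate 4 lists. The signal of a peak is the authors' own value, on a scale the sources used here do not state, and it ranged from 83.9 to 4992 in the IDR list, with a median of 134. Signals were therefore compared only within one list, and rank 1 is the strongest peak of a list. Library depth is unknown, as the lists hold no read counts, and with 1 group there was no contrast to test.

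IDR peaks lay in the loci of 5 of the 8 genes, Atg1, Atg8a, Atg17, Atg18a and ref(2)P. Over all 13945 protein-coding genes the share was 38.4%, and among the 8 it was 62.5%. The 8 were chosen with earlier results of these data known, so this share and the later ones stand side by side without a test. Atg9, Atg13 and Mitf had 0 IDR peaks. The 5 loci held 10 IDR peaks, of which 4 were at Atg1, 2 at Atg8a, 2 at ref(2)P and 1 each at Atg17 and Atg18a. The gene with 4 or more IDR peaks was Atg1 alone among the 8, and 3.21% of all genes, of any length, had as many. Its locus spanned 30.7 kb, and per kb of locus it held 0.130 IDR peaks, fewer than ref(2)P (0.153) and Atg8a (0.149). The 10 peaks reached signals of 87.1 to 419, between rank 3963 and rank 253 of the 4175.

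**Figure D1:**
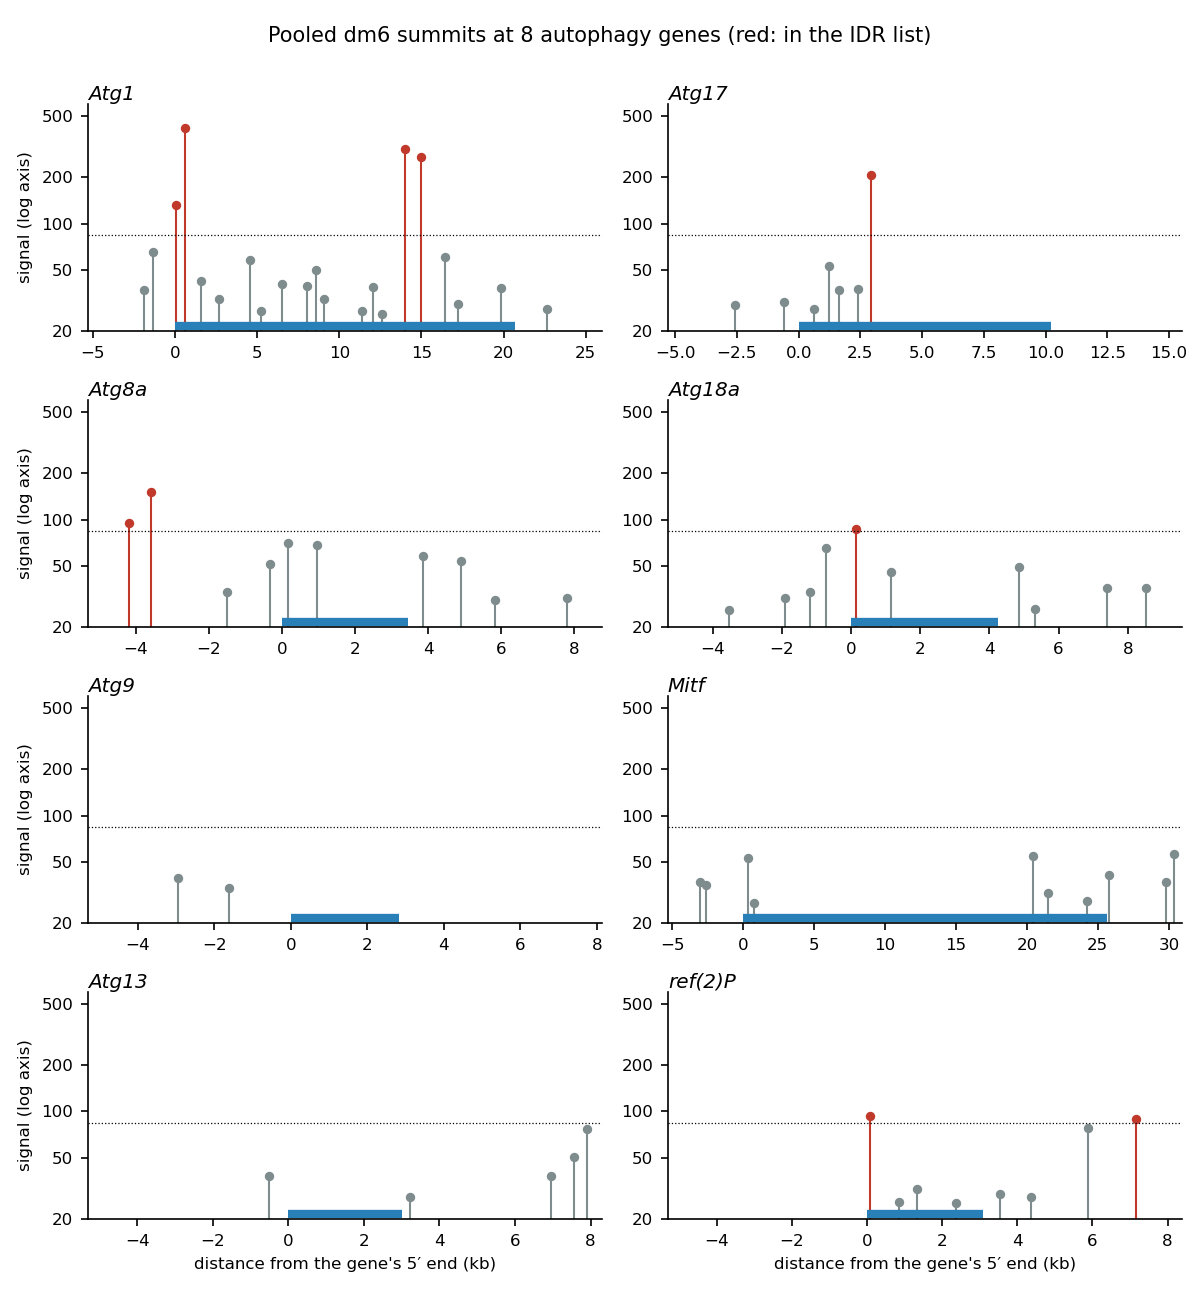
Signal of each pooled summit (log axis) against its distance from the gene's 5′ end in kb, for the 8 autophagy genes; red marks the 10 IDR peaks, the blue bar is the gene and the dotted line is the weakest IDR signal of 83.9. Atg1 carries 4 red summits up to 419, while Atg9, Atg13 and Mitf stay under the dotted line.

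The sequences at the IDR peaks of Atg1 and Atg17 and at the stronger IDR peak of the Atg8a locus are shown first, because they include each of the 5 peaks with a motif match. The Atg1 peak at rank 650 is added as a strong peak without a match. They are on the plus strand of the Release 6 assembly (dm6) and come from RefSeq. Capitals mark matches to GAGAGAG, the element of the GAGA factor, on either strand (CTCTCTC on the minus strand), and to CACGTG, an E-box that forms the core of sites of Mitf-type factors. The runs within a UTR were kept short and show the match, and the others surround the summit.
Atg1, rank 253, 5′ UTR, chr3L:12804487-12804515: CTCTCTCccactctccCTCTCTCTCTCTC
Atg1, rank 501, intron, chr3L:12791065-12791215: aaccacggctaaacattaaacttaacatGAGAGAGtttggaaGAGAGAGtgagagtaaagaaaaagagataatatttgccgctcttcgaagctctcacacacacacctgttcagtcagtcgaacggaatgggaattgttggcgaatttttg
Atg1, rank 650, intron, chr3L:12790143-12790191: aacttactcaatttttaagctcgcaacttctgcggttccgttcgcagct
Atg1, rank 2127, 5′ UTR, chr3L:12805032-12805060: GAGAGAGactagtggaaaaggcaagacga
Atg17, rank 997, intron, chr3R:5672580-5672712: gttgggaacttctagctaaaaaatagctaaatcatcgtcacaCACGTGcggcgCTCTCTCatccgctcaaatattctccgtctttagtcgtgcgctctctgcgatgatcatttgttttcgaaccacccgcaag
Atg8a, rank 1722, BTBD9 3′ UTR, chrX:10771961-10771989: GAGAGAGAGggacgccgatccagcgagcg

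The weaker IDR peaks at Atg18a and ref(2)P are shown for contrast, since none of the searched motifs matched within 100 bp of their summits. The runs at both 5′ UTRs are centred on the summit, as is the longer run at the neighbouring gene Tep4 in the ref(2)P locus.
Atg18a, rank 3963, 5′ UTR, chr3L:8186997-8187025: gctgtcccacttgcctttgtgtgggtgct
ref(2)P, rank 3573, 5′ UTR, chr2L:19542546-19542574: caccgtgatttgcaacaatttgagcctca
ref(2)P, rank 3846, Tep4 intron, chr2L:19549544-19549692: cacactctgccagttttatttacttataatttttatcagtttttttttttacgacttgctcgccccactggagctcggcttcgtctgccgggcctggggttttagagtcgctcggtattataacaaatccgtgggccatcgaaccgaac

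Atg1 (FBgn0260945) encodes the kinase that starts autophagy and lies on the minus strand of 3L at 12784429 to 12805116, over 20.7 kb with 1 transcription start site (TSS). Its strongest peak, at 12804446 to 12804596 with the summit at 12804514, sat in the 5′ UTR 602 bp inside the gene and ranked 253 with a signal of 419. The same summit was found in both replicates, at a signal of 336 and rank 233 in replicate 3 and at 93.9 and rank 457 in replicate 4. This is the CT-rich run printed above, with 5 overlapping or separate GAGAGAG matches within 100 bp of the summit and a longest uninterrupted GA repeat of 13 bp.

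A second IDR peak of Atg1, at 12804950 to 12805193, had its summit 44 bp inside the TSS. Its pooled signal was 133 (rank 2127), with 73.7 (rank 3478) in replicate 3 and 63.9 (rank 1012) in replicate 4. Of all 13945 genes, 1189 (8.53%) had a stronger pooled summit within 500 bp of a TSS. Replicate 4 thus placed the start site of Atg1 higher in its order than replicate 3 did, whereas the order was the other way at the peak 602 bp inside.

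The remaining IDR peaks of Atg1 were in its intron, 13976 and 14949 bp from its own TSS. The one at rank 501 (signal 306) had its summit at 12791140, and the one at rank 650 (signal 269) at 12790167. In replicate 3 they had signals of 247 and 217 (ranks 476 and 601), and in replicate 4 of 37.0 and 53.3 (ranks 2680 and 1445). Each lay near a TSS of CG42709, a gene on the opposite strand that begins inside the Atg1 intron, the one at rank 501 at 78 bp from one of its TSSs and the one at rank 650 at 25 bp from another. They count in the Atg1 locus by position, and which gene they serve was not tested.

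The other subunits of the kinase complex differed from Atg1. Atg17 (FBgn0037363), the scaffold of the complex, lies on the plus strand of 3R at 5669713 to 5679930 and had a single IDR peak, at 5672524 to 5672767, with a signal of 207 and rank 997. Replicate 3 gave 181 (rank 831) and replicate 4 gave 31.3 (rank 3471) for it. The summit, at 5672646, was in an intron 2933 bp inside the gene, and the run printed above holds CACGTG and GAGAGAG 5 bases apart.

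The annotated start of Atg17 was weak in each list. No pooled summit lay within 500 bp of it, and the closest came to 30.3 (rank 14248) in replicate 3 at 290 bp inside and to 7.81 (rank 24996) in replicate 4 at 52 bp inside, both with q above 0.01. A summit of replicate 4 further in, 751 bp inside the 5′ UTR, had a signal of 26.4 and rank 4496. The nearest replicate 3 summit with q at most 0.01 lay 1248 bp inside, at 62.8 and rank 4367. Apart from the IDR peak, the replicates thus passed q of 0.01 at different places in Atg17.

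Atg13 (FBgn0261108), the regulatory subunit that binds Atg1, lies on the plus strand of 3R at 8349815 to 8352817 and had 0 IDR peaks. The strongest pooled summit of its locus had a signal of 77.5 (rank 4672), below the weakest IDR signal of 83.9, and lay 399 bp from the TSS of stck, a neighbour downstream. At Atg13 itself the nearest pooled summit was 511 bp upstream of the TSS, with 37.9 (rank 14928). In replicate 4 a summit in its 5′ UTR, 91 bp inside, had a signal of 16.8 (rank 8819) with a −log10 q of 2.97, and in replicate 3 the only summit within 500 bp was 434 bp upstream, with 20.8 (rank 27337) and a −log10 q of 0.784. A summit at the Atg13 start with q at most 0.01 was thus seen in 1 replicate of 2.

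Of the genes for membrane growth, Atg18a (FBgn0035850) binds phosphatidylinositol 3-phosphate and lies on the plus strand of 3L at 8186857 to 8191118 with 2 TSSs. Its IDR peak, at 8186889 to 8187132, had its summit at 8187011 in the 5′ UTR, 16 bp inside a TSS. The pooled signal was 87.1 (rank 3963), among the weakest of the IDR list. Replicate 3 had a summit of 83.0 (rank 2920) 10 bp upstream of a TSS, 26 bp from the pooled summit, and replicate 4 one of 18.7 (rank 7566) 122 bp from it. It was the peak of the 10 without a summit of replicate 4 within 100 bp. In replicate 4 the strongest summit of the locus lay instead 400 bp from the start of ERR, the neighbouring gene on the opposite strand that encodes the estrogen-related receptor, with 29.9 (rank 3725).

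The weakest locus was that of Atg9 (FBgn0034110), which encodes the transmembrane protein of the vesicles that seed the new membrane. It held 2 pooled summits, at 39.2 (rank 14036) and 33.8 (rank 18482), both upstream of the gene and both nearest to the start shared by CG30100 and CG42372. Its strongest summits in replicates 3 and 4 were 27.8 (rank 16598) and 10.5 (rank 17112). No list had a summit within 500 bp of the Atg9 TSS, and no summit in its locus had q at most 0.01. These lists hold 30000 regions each, so a weaker signal at Atg9 would not be listed.

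Atg8a (FBgn0052672), the ubiquitin-like protein that marks autophagosomes, lies on the minus strand of X at 10764878 to 10768338 with 3 TSSs. Its locus held 2 IDR peaks, but both were far upstream of the gene, beside the start of CG15211. The stronger, with the summit at 10771913, lay in the 3′ UTR of BTBD9, 628 bp from the CG15211 TSS and 3575 bp upstream of Atg8a, with a signal of 151 (rank 1722). It had 88.0 (rank 2689) in replicate 3 and 45.6 (rank 1853) in replicate 4. The other, at 10772517, was 24 bp from the CG15211 TSS with 95.0 (rank 3485), and its replicate values were 76.2 (rank 3317) and 14.0 (rank 11444).

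At the Atg8a start itself the pooled summits fell short of the IDR list. The strongest, in the 5′ UTR 172 bp inside, had a signal of 70.1 (rank 5397) and a −log10 q of 3.08, and replicates 3 and 4 gave 56.8 (rank 5072) and 23.8 (rank 5270) there, 155 bp and 61 bp inside. A further pooled summit of 68.5 (rank 5584) sat 76 bp upstream of an internal TSS of Atg8a. The summit of 70.1 was also the strongest within 500 bp of a TSS of BTBD9. Another pooled summit, of 51.3 (rank 8752), lay 78 bp from the BTBD9 TSS. Both replicates gave the Atg8a start nearly the same rank, though by summits at different places, 155 bp and 61 bp inside. Of all genes, 2578 (18.5%) had a stronger pooled summit at a TSS.

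ref(2)P (FBgn0003231), the cargo receptor, lies on the plus strand of 2L at 19542468 to 19545548 with 1 TSS. Its IDR peak at 19542438 to 19542681 had the summit in the 5′ UTR, 92 bp inside, with a signal of 93.4 (rank 3573). Replicate 3 gave 66.1 (rank 4056) 1 bp away, and replicate 4 gave 18.9 (rank 7460) 33 bp away. Its start was within the strongest 4175 peaks of replicate 3 and below them in replicate 4. The second IDR peak of the locus, 7150 bp from its start, was 75 bp from a TSS of Tep4, which encodes a thioester-containing protein of the immune response. That peak had 89.1 (rank 3846) in the pooled list, 88.9 (rank 2649) in replicate 3 and 20.8 (rank 6496) in replicate 4, and another Tep4 summit of 78.6 (rank 4572) fell just short of the IDR list.

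Mitf (FBgn0263112), the transcription factor of the set, lies on the plus strand of chromosome 4 at 1198852 to 1224467, over 25.6 kb with 3 TSSs, and had 0 IDR peaks. Its strongest pooled summit at a TSS, 54.9 (rank 7853), lay in coding sequence 238 bp inside an internal TSS, and 3435 genes (24.6%) had a stronger one. A pooled summit at the upstream TSS was close to it, with 52.6 (rank 8391), in an intron 353 bp inside it. Replicate 3 had its strongest summit at the upstream TSS, with 37.1 (rank 9948) and a −log10 q of 2.07, and replicate 4 had its at the internal TSS, with 21.1 (rank 6317) and a −log10 q of 3.62. Replicate 3 also had a summit 73 bp upstream of the internal TSS, nearly as strong at 36.1 (rank 10451) and with a −log10 q of 1.94, just short of the limit. Both replicates thus had a summit at the internal start of Mitf, and replicate 4 had none within 500 bp of the upstream one. On chromosome 4, 17 of 80 genes (21.3%) had an IDR peak in the locus and 12 IDR peaks were found in all.

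**Figure D2:**
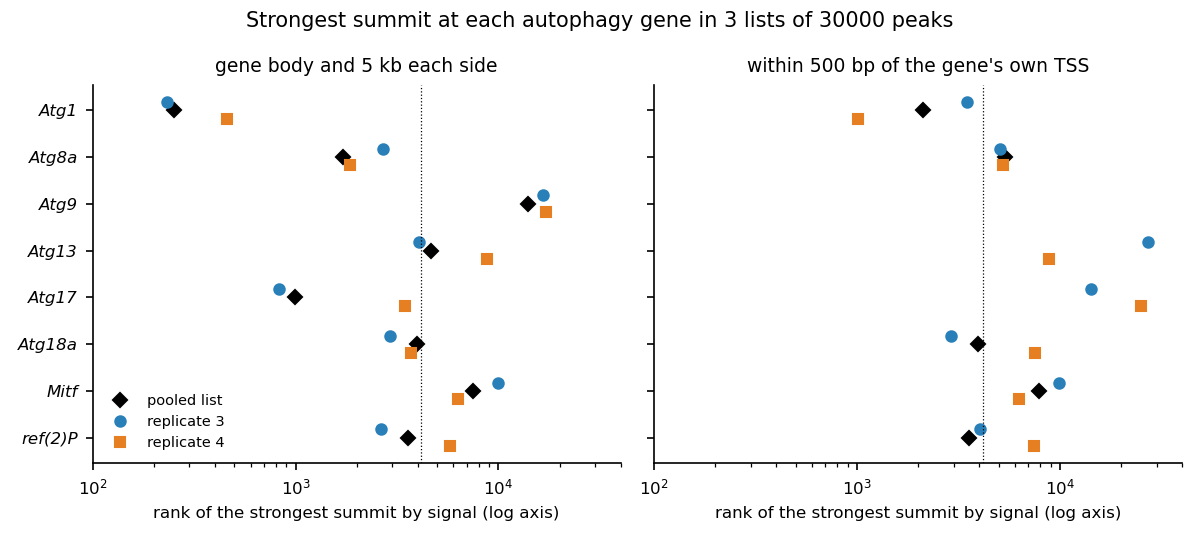
Rank by signal (log axis, 1 is the strongest of 30000) of the strongest summit at each of the 8 genes in the pooled list (black), replicate 3 (blue) and replicate 4 (orange), over the locus (left) and within 500 bp of the gene's own TSS (right); the dotted line is rank 4175. Atg1 lies left of the line in each list and in both panels, whereas Atg9 ranks 14036 at best in its locus and has no point at its TSS.

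Ordered by the strongest pooled summit in the locus, the genes ran Atg1 (419), Atg17 (207), Atg8a (151), ref(2)P (93.4), Atg18a (87.1), Atg13 (77.5), Mitf (56.5) and Atg9 (39.2). In replicate 3 the order was Atg1, Atg17, ref(2)P, Atg8a, Atg18a, Atg13, Mitf and Atg9, so that Atg8a (88.0) and ref(2)P (88.9) changed places. In replicate 4 it was Atg1, Atg8a, Atg17, Atg18a, ref(2)P, Mitf, Atg13 and Atg9. Atg1 was highest and Atg9 lowest in each of these lists, while the neighbours in the middle of the order were not separated by the replicates. Several of these summits belong by position to a neighbour. This was so at Atg8a and Atg9 in each list, at Atg13 in the pooled and replicate 3 lists and at Mitf in the pooled list. The 88.9 of ref(2)P in replicate 3 was nearest to Tep4. In replicate 4 the strongest summit was nearest to CG10337 at ref(2)P (22.5) and to ERR at Atg18a (29.9).

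Within 500 bp of their own TSS, 3 of the 8 genes had an IDR peak, Atg1, Atg18a and ref(2)P. This was 37.5%, beside 15.3% of all genes. With the 4175 strongest peaks of replicate 4 in place of the IDR list, which leaves out replicate 3, only Atg1 of the 8 kept such a peak, beside 14.8% of all genes. With those of replicate 3 the same 3 genes did, beside 15.6%. Under this limit of the 4175 strongest peaks, the count at start sites thus depends on replicate 3. At q of at most 0.01, replicate 4 had a summit at the start of each of Atg1, Atg18a and ref(2)P.

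**Figure D3:**
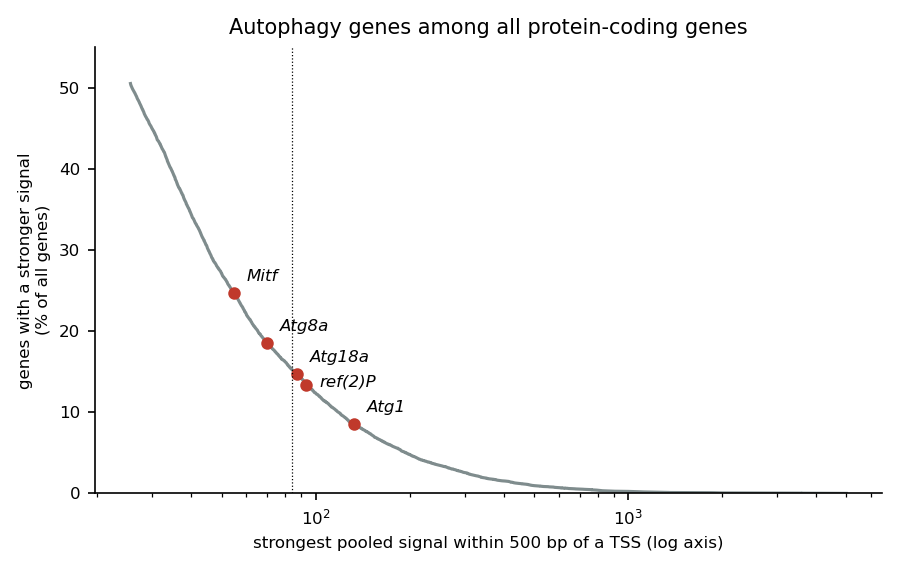
Share of all 13945 protein-coding genes with a stronger pooled summit within 500 bp of a TSS (vertical, %), against that signal (log axis); points are the 5 autophagy genes with such a summit and the dotted line is the weakest IDR signal. Atg1 at 133 has 8.53% of genes above it and Mitf at 54.9 has 24.6%.

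When each IDR peak was given only to the gene with the nearest TSS, 4 of the 8 genes kept one (Atg1, Atg17, Atg18a and ref(2)P), which is 50% beside 17.2% of all genes. Of the 10 IDR peaks in the loci, 5 had the autophagy gene's own TSS as the nearest, and the other 5 were nearest to CG42709, CG15211 or Tep4. In the pooled list at q of at most 0.01, 10 of 23 summits in the loci had the autophagy gene nearest. No such share of summits over the loci of all genes is at hand, so these summit counts have no background beside them.

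Below the IDR threshold the counts rose. A pooled summit with q of at most 0.01 was in the locus of 7 genes, all but Atg9, beside 57.9% of all genes. One lay at the TSS of 5 genes, Atg1, Atg8a, Atg18a, Mitf and ref(2)P, beside 25.4%. With no limit on q, all 8 loci had a pooled summit, beside 86.8%, and the same 5 genes had one at a TSS, beside 50.5%, so the last counts lie near the background. The TSS count thus did not grow from the q limit to the whole pooled list, and at Atg9, Atg13 and Atg17 no pooled summit lay within 500 bp of the start.

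In replicate 3 the same 5 genes had a summit at a TSS with q of at most 0.01, beside 29.2% of all genes. In replicate 4 there were 6, with Atg13 added, beside 34.1%. Both replicates had one at 5 genes, beside 22.0%, with Mitf counted although the summits that passed were at different starts. Of the 10 IDR peaks, 10 had a replicate 3 summit within 100 bp and 9 had a replicate 4 summit, the exception being Atg18a. Over the whole IDR list these shares were 98.0% and 87.3%, and 85.4% had both, so the autophagy peaks lay near the list as a whole.

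**Figure D4:**
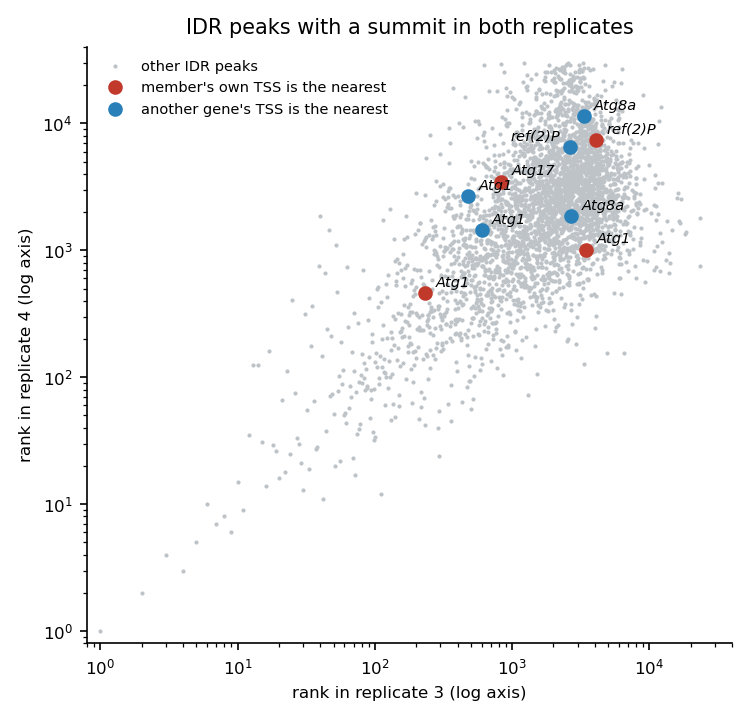
Rank in replicate 4 against rank in replicate 3 (log axes) for IDR peaks with a summit of both replicates within 100 bp; grey points are other IDR peaks, red and blue points the 9 peaks in autophagy loci by whether the gene's own TSS is the nearest. The Atg1 peak at ranks 233 and 457 is the highest of the 9 in both replicates.

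The autophagy genes were longer than most, and longer genes hold more peaks. The median length was 3.86 kb for the 8 and 2.17 kb for all genes. With all genes ranked by length and divided into 4 classes of nearly equal size, the longest class (4999 bp or more) holds Atg1, Atg17 and Mitf. In it 58.2% of genes had an IDR peak in the locus and 35.7% one at a TSS. In the next class (2167 to 4998 bp), which holds the remaining 5, the shares were 39.2% and 14.4%. Of the 3 long genes 2 had an IDR peak in the locus and 1 at a TSS, and of the 5 others 3 and 2. The part of gene length in these counts was not tested.

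Motif matches were counted on both strands in windows of 100 bp each side of the IDR summits. GAGAGAG was in 5 of the 10 windows, 3 at Atg1, 1 at Atg17 and 1 at Atg8a, beside 34.6% of all 4175 windows. Of the 5 autophagy peaks among the 2087 strongest of the list, 4 had a match, beside 45.9% of those 2087. Of the 5 among the 2088 weakest, 1 had a match, beside 23.3%. CACGTG was in 1 window, that of Atg17, beside 3.47%. TATCGATA, the DNA replication-related element, was in 0 of 10 beside 1.63%, and a loose form of the κB site, with GGG and CC 5 bases apart, was in 0 of 10 beside 11.3%. These are matches of letters, and 0 matches say only that the letters are not in these windows.

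Promoter windows of 250 bp before to 50 bp after the 5′ end were searched as well. GAGAGAG and CACGTG were in 0 of the 8 promoters, beside 9.09% and 5.34% of all genes, and with 8 genes a count of 0 lies near these shares. The GAGAGAG printed for the Atg1 start-site peak at rank 2127 lies more than 50 bp inside the gene, beyond this window. TATCGATA was in 3, those of Atg13, Atg17 and ref(2)P, beside 10.2%, and the loose κB form in 1, that of Atg8a, beside 16.1%. Of the 3 promoters with TATCGATA, that of ref(2)P had an IDR peak at its start and those of Atg13 and Atg17 had none.

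The same counts were made for a list of 33 other genes of autophagy and the lysosome. IDR peaks were in the loci of 17 (51.5%, beside 38.4% of all genes) and at a TSS of 4 (12.1%, beside 15.3%), bchs, cnc, CtsL1 and cathD. At least 4 IDR peaks were in each of 3 loci, Vps15, cnc and CtsL1, beside 3.21% of all genes. By the nearest TSS alone 5 genes kept a peak (15.2%, beside 17.2%). Pooled summits with q of at most 0.01 were in 25 of the 33 loci (75.8%, beside 57.9%) and at a TSS of 10 (30.3%, beside 25.4%). The shares at start sites were thus close to those of all genes, and those over loci were above them. The difference between these genes and the 8 was not tested. Their median length was 3.35 kb.

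The strongest IDR peak in any of these loci was at Vps15, a subunit of the phosphatidylinositol 3-kinase complex, with 539 (rank 145), and no pooled summit lay within 500 bp of the Vps15 start. Atg18b, a relative of Atg18a, followed with 246 (rank 750), also without a pooled summit at its TSS. CtsL1, a lysosomal cathepsin L, had 235 (rank 804) 492 bp upstream of a TSS, and cnc, the fly Nrf2 factor, had 233 (rank 815) 95 bp upstream of one. Atg6, the Beclin homologue of the same kinase complex as Vps15, had 212 (rank 952) in the locus and 50.3 (rank 9019) at its own start. Ccz1, which helps recruit Rab7 for fusion with the lysosome, had 195 (rank 1124) in the locus. By the nearest TSS, cnc and CtsL1 kept an IDR peak, while Vps15, Atg18b, Atg6 and Ccz1 kept none. The peaks of these last genes thus count by position in the locus only. Atg1 was above all of these genes but Vps15 by the strongest peak in its locus.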

How the data were processed

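Both samples were placed in 1 group from their labels, and the peak lists of dm6 were used as deposited. Per the deposited listings, the authors called peaks in each replicate and in the pooled replicates and then applied IDR. Each peak carries a signal and a −log10 q value deposited by the authors. The sources used here do not state the aligner, the peak caller, their versions or the scaling of the signal. The dm3 lists were not used, as builds were not mixed.

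Peaks were placed by their summits, in 1-based coordinates, with genes from Ensembl release 115 and sequence from the RefSeq Release 6 assembly. The build was checked on start codons, and 30598 of 30748 coding transcripts (99.5%) began with ATG in that sequence. A TSS was the 5′ end of any annotated transcript of a protein-coding gene, and the nearest TSS was sought over all protein-coding genes. A replicate matched an IDR peak when it had a summit within 100 bp. Motifs were sought on both strands.

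The named genes were all 8 autophagy genes, the 6 other genes with the strongest IDR peak in their locus, and neighbours whose TSS was nearest to a summit in an autophagy locus. Further genes were named where a count was small. The members, the list of 33 other genes and the motifs were chosen with earlier results of these data known. No p-value was computed, as 1 group offers no contrast and replicate 3 and replicate 4 share no second condition. Alternatives changed the flank, the TSS window, the strength limit, the rule for assigning a peak to a gene, the match distance and the replicate used. Scripts used Python 3.11.15 and NumPy 2.4.6, and the counting was checked on simulated data with planted summits.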

Additional observations from a re-analysis of the deposited data

How the results depend on the processing

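Of 10 alternatives, 9 left the number of autophagy genes with an IDR peak in the locus within 1.5 times of 5. With only 8 genes, the count has little room to rise past that limit, and the share of all genes moved more. A flank of 0 bp gave 4 genes beside 12.1% of all genes, and a flank of 10000 bp gave 5 beside 53.0%. The pooled list at q of at most 0.01 gave 7 beside 57.9%. The stronger part of the IDR list (the 2087 strongest peaks) gave 3 genes, beside 22.5% of all genes, with 0 at a TSS, beside 8.42%. It gave 5 peaks in the loci and 8 of the 33 other genes. Atg1 missed the TSS count narrowly. Its peak 44 bp inside had rank 2127, just past this limit. Its peak at rank 253 was within the limit but lay 602 bp inside, outside the TSS window. The start-site peaks of ref(2)P and Atg18a, at ranks 3573 and 3963, were further down the list. The pooled list at q of at most 0.01 gave 5 genes at a TSS, beside 25.4% of all genes, and 23 summits in the loci. Counting a peak only for the gene with the nearest TSS left 5 peaks, and 5 of the 33 other genes, beside 17.2% of all genes. For these other genes, a flank of 0 bp gave 5 and a flank of 1000 bp gave 8, against 17 with 5000 bp. The shares of all genes at these 3 flanks were 12.1%, 22.5% and 38.4%. With 1 replicate left out, the ranges were 4 to 6 genes in the locus, 1 to 3 at a TSS, 7 to 12 peaks and 17 to 19 other genes. Of all genes, 38.4% to 38.7% then had a peak in the locus and 14.8% to 15.6% at a TSS. Without replicate 3, Atg1 alone had a peak at its TSS among the 4175 strongest of replicate 4. The cause of these changes was not tested beyond their construction, as stricter limits and smaller flanks admit fewer peaks. Replicate matches and GAGAGAG counts stayed within 1.5 times under their 3 and 2 alternatives. The lowest match count, at that limit, was 6 of the 10 IDR peaks, against 9. It came from using only the strongest peaks of each replicate. No share over the whole IDR list is at hand for that setting, so 6 of 10 cannot be called low or usual. No paired analysis was possible because there is 1 group and no contrast. The unknown depth limits every statement that a gene had 0 peaks, since the lists end at 30000 regions.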
